A study of Mus musculus with 12 samples.

Results

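The genes described here are 48 imprinted genes of the mouse, found by symbol among the 35976 genes counted in each library of embryonic testis. Of the 48, 28 are known as expressed from the paternal copy and 18 from the maternal copy. The remaining 2, *Gnas* and *Grb10*, use either copy depending on isoform or tissue. The symbols and their parental assignment were listed from general knowledge of imprinting, and the assignment holds in some tissues and not in others. The counts do not separate the parental copies, so a value here is the summed RNA of both.

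The libraries came from testes of outbred Swiss (RjOrl) embryos at E15.5, each library from a pool of 3 embryos. Pregnant mice received thiacloprid (*thia*), a neonicotinoid insecticide, by gavage from E6.5 to E15.5 at “6” mg/kg/day, or vehicle as dose “0”. The F1 embryos were thus exposed through the dam. For F3, males of each line were crossed for 2 generations with untreated, unrelated females, so F3 *thia* embryos descend from treated dams and received no compound themselves. There were 3 pools in each of F1 control, F1 *thia*, F3 control and F3 *thia*, 12 in all, and a replicate below is a pool. Total counts ran from about 25081600 to 68996100 per library, so 1 CPM (a count scaled by library size with TMM factors over all 12 libraries) stood for about 27.4 to 66.1 counts. Generation, breeding and the time of library making cannot be told apart.

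Genomic imprinting is the expression of a gene from only one parental copy, set by DNA methylation laid down in the germ line of one parent. Most imprinted genes sit in clusters ruled by an imprinting control region, and many act on fetal growth, placental supply and the brain. In the embryonic male germ line the old marks are erased and paternal ones are then written, while the somatic cells of the testis keep them. A whole testis is a mixture of both, and in such bulk RNA fewer cells of a type and less RNA per cell cannot be told apart.

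In the marker lists, all 13 germ cell, all 10 Sertoli cell and all 8 Leydig cell markers were counted in each group, so none of them was at 0. Some libraries also carried RNA of other tissues. The summed level of 4 liver markers was 426, 108 and 175 CPM in F1 control, 71.6, 159.8 and 70.1 in F1 *thia*, 460.5, 334 and 1571 in F3 control and 937, 4864 and 589 in F3 *thia*. F3 control replicate 3 and F3 *thia* replicate 2 therefore stood above the others. The summed level of 9 erythroid markers was between 5183 and 19242 CPM in the F1 libraries and between 45404 and 84077 in the F3 libraries. Some results below are given beside these values or without these libraries, and the others are not.

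In 4 pairs of members a paternally expressed gene lies wholly inside the span of another member, its host. *Nnat* (chr2:157560078-157562522, plus strand, GRCm38) lies within *Blcap*, *Mcts2* (chr2:152687035-152687946, plus strand) within *H13*, and *Zrsr1* (chr11:22972005-22976496, plus strand) within *Commd1*. The fourth guest, the long antisense RNA *Kcnq1ot1* (chr7:143203458-143296549, minus strand), lies within *Kcnq1* and is described with its cluster. The promoter windows of *Nnat*, *Mcts2* and *Zrsr1* (RefSeq, GRCm38.p6, 250 bases before to 50 after the start) are shown here. They were chosen because *Nnat*, *Commd1* and *Mcts2*, 1 gene from each of these 3 pairs, had the smallest p values in F3. Capitals mark the hexamer TGCCGC, or its reverse complement GCGGCA, which the zinc finger protein ZFP57 binds when it is methylated.
Nnat (chr2:157559828-157560127, plus strand): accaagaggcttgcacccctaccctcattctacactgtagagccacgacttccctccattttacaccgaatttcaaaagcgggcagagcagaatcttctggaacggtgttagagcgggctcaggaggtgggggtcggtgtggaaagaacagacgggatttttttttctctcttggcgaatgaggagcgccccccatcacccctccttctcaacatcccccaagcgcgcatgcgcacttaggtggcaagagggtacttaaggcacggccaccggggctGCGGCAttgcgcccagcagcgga
Mcts2 (chr2:152686898-152687197, plus strand): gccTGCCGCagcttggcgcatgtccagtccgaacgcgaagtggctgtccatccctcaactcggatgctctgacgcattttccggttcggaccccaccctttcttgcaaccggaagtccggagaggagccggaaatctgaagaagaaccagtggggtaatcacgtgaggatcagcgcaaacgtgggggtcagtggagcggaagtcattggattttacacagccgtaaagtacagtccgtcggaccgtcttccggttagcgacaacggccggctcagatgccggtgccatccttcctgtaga
Zrsr1 (chr11:22971755-22972054, plus strand): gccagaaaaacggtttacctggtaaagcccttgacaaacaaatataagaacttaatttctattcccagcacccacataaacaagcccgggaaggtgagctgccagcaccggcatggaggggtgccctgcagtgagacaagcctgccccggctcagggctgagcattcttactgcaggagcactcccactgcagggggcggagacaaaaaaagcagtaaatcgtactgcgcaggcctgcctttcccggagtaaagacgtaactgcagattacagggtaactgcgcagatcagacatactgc
The *Nnat* and *Mcts2* windows held 1 hexamer each and that of *Zrsr1* held none, with 17, 25 and 10 CpG dinucleotides. The table held windows for 39 of the 48 members, 58 windows in all, and 14 of the 58 (24.1%) contained the hexamer on either strand. Among all 32851 windows of this length 11.6% contained it. The median number of CpG dinucleotides was 15 in the member windows and 7 in all windows. A match describes the letters in the window and is not a binding site, and windows of one gene can overlap.

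The imprinted genes spanned a very wide range of levels in the embryonic testis. Per kb of exon, the most abundant was *H19*, a long noncoding RNA expressed from the maternal copy, at a mean of 1211 CPM per kb over the 12 libraries (range 625 to 2228). *Igf2*, the fetal growth factor that lies beside it, followed at 272 CPM per kb. Next came *Mest*, a paternally expressed member of the hydrolase family, at 215, and *Cdkn1c*, a maternally expressed inhibitor of cyclin-dependent kinases, at 201 CPM per kb. *Dlk1*, a paternally expressed membrane protein related to the Notch ligands, followed at 177. The ranges over libraries of *Igf2*, *Mest*, *Cdkn1c* and *Dlk1* overlapped, although *Igf2* was above *Dlk1* within every library. Only the range of *H19* stood clear of the rest (625 at its lowest against 407 for *Igf2* at its highest). *Gnas*, which encodes the stimulatory G protein subunit, was at 130.3 CPM per kb, and *Nnat*, a small membrane protein first known from brain, at 103.

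At the low end, *Rasgrf1*, an activator of RAS, was at 0.0862 CPM per kb, and *Nespas*, an antisense RNA of the *Gnas* locus, at 0.142. *Snrpn*, which encodes a splicing protein and shares its locus with the *Snurf* reading frame, had 4 counts over all 12 libraries, with 8 libraries at 0 and none above 1. It was the only member not tested. In GENCODE M21, which is not the annotation used for counting, 27.3% of its exon bases were shared on the same strand with other genes, *Snurf* included. *Snurf* itself had a mean of 0.0024 CPM over the 12 libraries. Whether the overlap set the count of *Snrpn* was not tested. The other 47 passed the filter on low counts in both generations. *Airn* and *Kcnq1ot1* were left out of this order because they are long unspliced RNAs whose model length differs between annotations. The exon lengths are those of GENCODE M21, and the counts were made on another annotation of the same build.

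**Figure D1:**
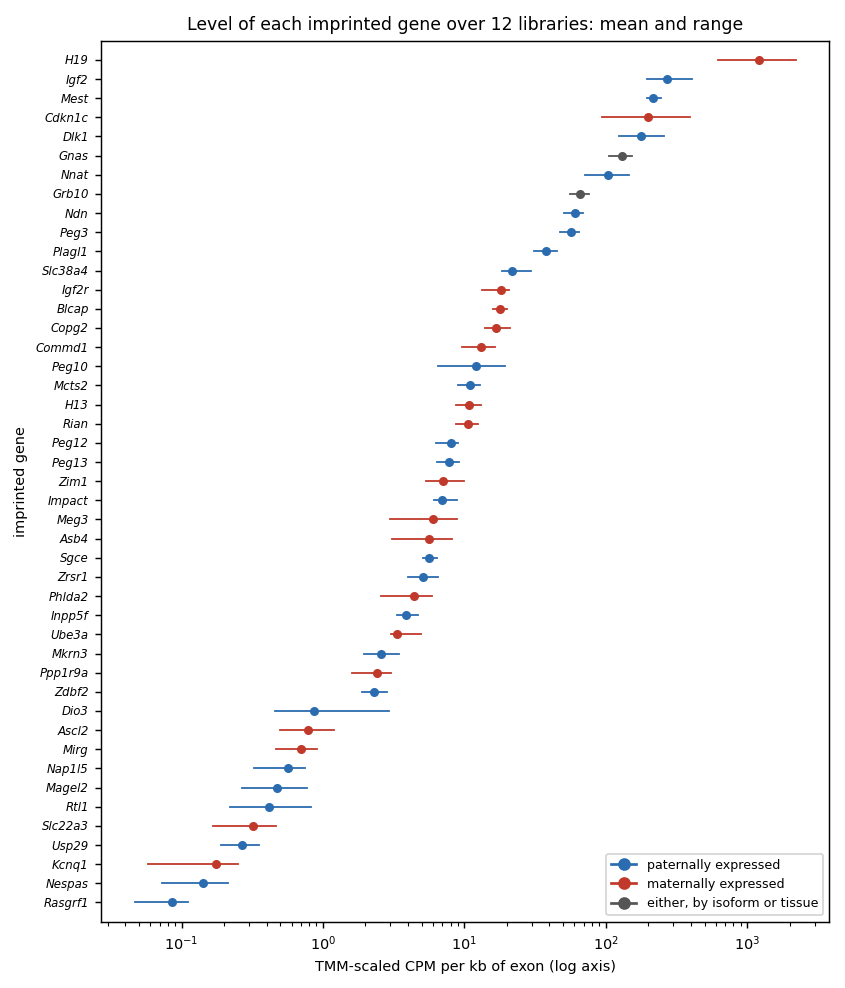
Level of 45 imprinted genes in TMM-scaled CPM per kb of exon, on a log axis; points are means over 12 libraries, lines run from the lowest to the highest library, and colour gives the expressed parental copy. *H19* is the highest at 1211 and *Rasgrf1* the lowest at 0.0862, with paternally and maternally expressed genes along the whole range; *Airn*, *Kcnq1ot1* and *Snrpn* are not drawn.

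The first comparison asks whether directly exposed F1 testes differed from F1 control testes in these genes. None of the 47 tested members was called in F1 by edgeR's quasi-likelihood test at a Benjamini-Hochberg FDR of 0.15, the limit used for F1 in the study. Across all 19137 genes tested 0.0105% were called. DESeq2 at the same FDR also called 0 of 47, against 1.07% of all genes. At an unadjusted p under 0.05, edgeR found 3 of 47 members (6.38%), a share below the 8.76% of all genes. The 3 pools of each group did not overlap in 6 members (12.8%), against 15.1% of all genes.

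The gene with the smallest p in F1 was *Slc22a3*, an organic cation transporter expressed from the maternal copy in placenta. Its level was 0.752, 1.08 and 1.31 CPM in the control pools and 2.09, 1.64 and 1.51 CPM in the *thia* pools. All *thia* pools lay above all control pools, at a log2 fold change of 0.77 ± 0.27 (SE, edgeR adjusted p = 0.518). *Cdkn1c* was at 259.6, 192 and 198 CPM in control and 266, 345 and 236 CPM in *thia*. Its groups overlapped, since the highest control pool was above the lowest *thia* pool, and the log2 fold change was 0.40 ± 0.16 (edgeR adjusted p = 0.548). Without *thia* replicate 2 it was 0.23, and the unadjusted p was then above 0.05. *Zrsr1*, a retrogene copy of a splicing factor gene, was at 25.8, 29.3 and 29.3 CPM in control and 24.5, 23.9 and 22.4 CPM in *thia*. Every *thia* pool was below every control pool, at a log2 fold change of -0.24 ± 0.10 (edgeR adjusted p = 0.563).

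The next genes by p did not reach 0.05 even without adjustment. *Rtl1*, a gene derived from a retrotransposon and needed in placenta and fetal muscle, was at 2.09, 1.45 and 1.46 CPM in control and 2.61, 5.23 and 1.45 CPM in *thia*. Only *thia* replicate 2 was far above the controls, and that pool also had the highest sum of 8 skeletal muscle markers, 531 CPM against 39.2 to 192 in the other 11 libraries. The part of this in the *Rtl1* value was not tested. Without that pool the log2 fold change of *Rtl1* was 0.29, against 0.89 with it. *Ube3a*, a ubiquitin ligase, was at 69.6, 71.3 and 102 CPM in control and 66.8, 63.0 and 62.8 CPM in *thia*, with control replicate 3 far above the rest. The remaining genes among the 10 smallest p values in F1 were *Dlk1* (0.23 ± 0.12), *Inpp5f*, an inositol phosphatase (-0.18 ± 0.10), *H13*, a signal peptide peptidase (0.15 ± 0.088), *Ndn*, the MAGE-family protein necdin (0.16 ± 0.093), and *Impact*, a regulator of translation (-0.19 ± 0.11), each as log2 fold change with SE. Single pools moved several F1 values by over 1.5 times. Without control replicate 3 the log2 fold change was -0.11 for *Ube3a* (against -0.32 with it), 0.14 for *Dlk1*, 0.092 for *H13* and -0.078 for *Impact*. Without control replicate 1 it was 0.36 for *Dlk1*.

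The second comparison asks the same of F3, whose embryos were not exposed themselves. No member was called by edgeR at an FDR of 0.1, and none of the 18539 genes tested was (0%). The smallest adjusted p over all genes was only just above that limit, so this count says little on its own. At an unadjusted p under 0.05, edgeR found 9 of 47 members (19.1%) against 21.1% of all genes. DESeq2 at an FDR of 0.1 called 7 of the 42 members that it gave an adjusted p, 3 of them higher in *thia* (7.14% against 9.54% of all genes) and 4 lower (9.52% against 5.95%). The pools of the F3 groups did not overlap in 11 members (23.4%), against 27.3% of all genes. Counted in either direction, the members were thus near the background of all genes with edgeR.

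*Nnat* had the smallest p in F3. Its level was 266, 266 and 233 CPM in the F3 control pools and 162, 213 and 181 CPM in the F3 *thia* pools. All 3 *thia* pools were below all 3 controls, at a log2 fold change of -0.50 ± 0.11 (edgeR adjusted p = 0.105; DESeq2 adjusted p = 0.00732). Without the 2 libraries with the most liver marker RNA it was -0.66, which passed the limit (edgeR adjusted p = 0.0954). At that setting 1.10% of all genes passed. *Commd1*, a protein of copper handling and NF-kB control, was at 97.8, 91.9 and 96.2 CPM in F3 control and 81.7, 83.8 and 83.0 CPM in F3 *thia*. The groups were narrow and did not overlap, and the log2 fold change was -0.24 ± 0.064 (edgeR adjusted p = 0.122; DESeq2 adjusted p = 0.0757).

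*Mcts2*, a retrogene copy of a translation factor gene, was at 11.0, 10.8 and 11.6 CPM in control and 9.26, 8.25 and 8.87 CPM in *thia*, again without overlap, at -0.37 ± 0.12 on the log2 scale (edgeR adjusted p = 0.145). Its host *H13* was on the other side, at 90.6, 93.1 and 92.6 CPM in control and 101, 111 and 117 CPM in *thia*, with a log2 fold change of 0.21 ± 0.075 (edgeR adjusted p = 0.177). *Asb4*, an ankyrin repeat and SOCS box protein, was at 18.6, 18.2 and 17.5 CPM in control and 14.0, 12.1 and 16.1 CPM in *thia*, each *thia* pool below each control. Its log2 fold change was -0.40 ± 0.12 (edgeR adjusted p = 0.147). *Ppp1r9a*, an actin-binding protein of synapses that lies in the same cluster, was at 0.32 ± 0.13, with overlapping groups (edgeR adjusted p = 0.223).

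*Igf2r*, the receptor that delivers IGF2 to lysosomes and so limits growth, was at 125, 137 and 156 CPM in F3 control and 164, 193 and 188 CPM in F3 *thia*. All *thia* pools lay above all controls, at a log2 fold change of 0.34 ± 0.11 (edgeR adjusted p = 0.148; DESeq2 adjusted p = 0.0465). The F3 *thia* pools were at the level of the F1 control pools, 180.0, 164 and 179 CPM, and the F3 controls were below both. *Airn*, the paternally expressed antisense RNA that silences *Igf2r* on that copy, was at -0.19 ± 0.14 on the log2 scale (edgeR adjusted p = 0.477).

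*Magel2*, a MAGE-family protein beside *Ndn*, was at 1.24, 1.69 and 1.88 CPM in control and 2.68, 2.06 and 3.56 CPM in *thia*, a log2 fold change of 0.75 ± 0.27 (edgeR adjusted p = 0.181). *Dio3*, the deiodinase that inactivates thyroid hormone, was at 1.18, 0.925 and 1.04 CPM in control and 1.50, 1.45 and 5.92 CPM in *thia*. The fold change of 1.47 ± 0.57 on the log2 scale (edgeR adjusted p = 0.203) came largely from *thia* replicate 3, and without that pool it was 0.45 (edgeR adjusted p = 0.449). In that pool the sum of 8 adrenal markers was 135 CPM, against 43.8 to 74.3 in the other 11 libraries, and its part in the value was not tested. *Rtl1* completed the 10 smallest p values, at 0.66 ± 0.31 (edgeR adjusted p = 0.273), and at 0.42 without control replicate 1. Other F3 genes also rested on single pools. Without *thia* replicate 3 the unadjusted edgeR p was 0.103 for *Magel2* and 0.0845 for *H13*. Without control replicate 1 it was 0.137 for *Ppp1r9a* and 0.0516 for *Igf2r*.

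In F3 the marker lists differed between the groups too. All 7 endothelial markers had an unadjusted p under 0.05 and were higher in F3 *thia*, with sums of 161, 186 and 177 CPM in control and 259, 250.5 and 304 CPM in *thia*. In that direction 11% of all genes passed. The 8 Leydig cell markers summed to 2436, 3942 and 3626 CPM in F3 control and 5960.3, 4322 and 7565 CPM in F3 *thia*, 5 of them higher with a p under 0.05. Among 10 interstitial markers 9 fold changes were above 0, and 5 markers were higher with a p under 0.05. Among the 10 Sertoli cell markers these counts were 6 and 1. The 13 germ cell markers summed to 1352, 1176 and 889 CPM in control and 1202, 622 and 796 CPM in *thia*, which overlapped, and 12 of the 13 fold changes were below 0. Of the 13, 4 were lower with a p under 0.05, where 10.0% of all genes passed as lower. The part of these cell types in the values of the imprinted genes was not tested.

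**Figure D2:**
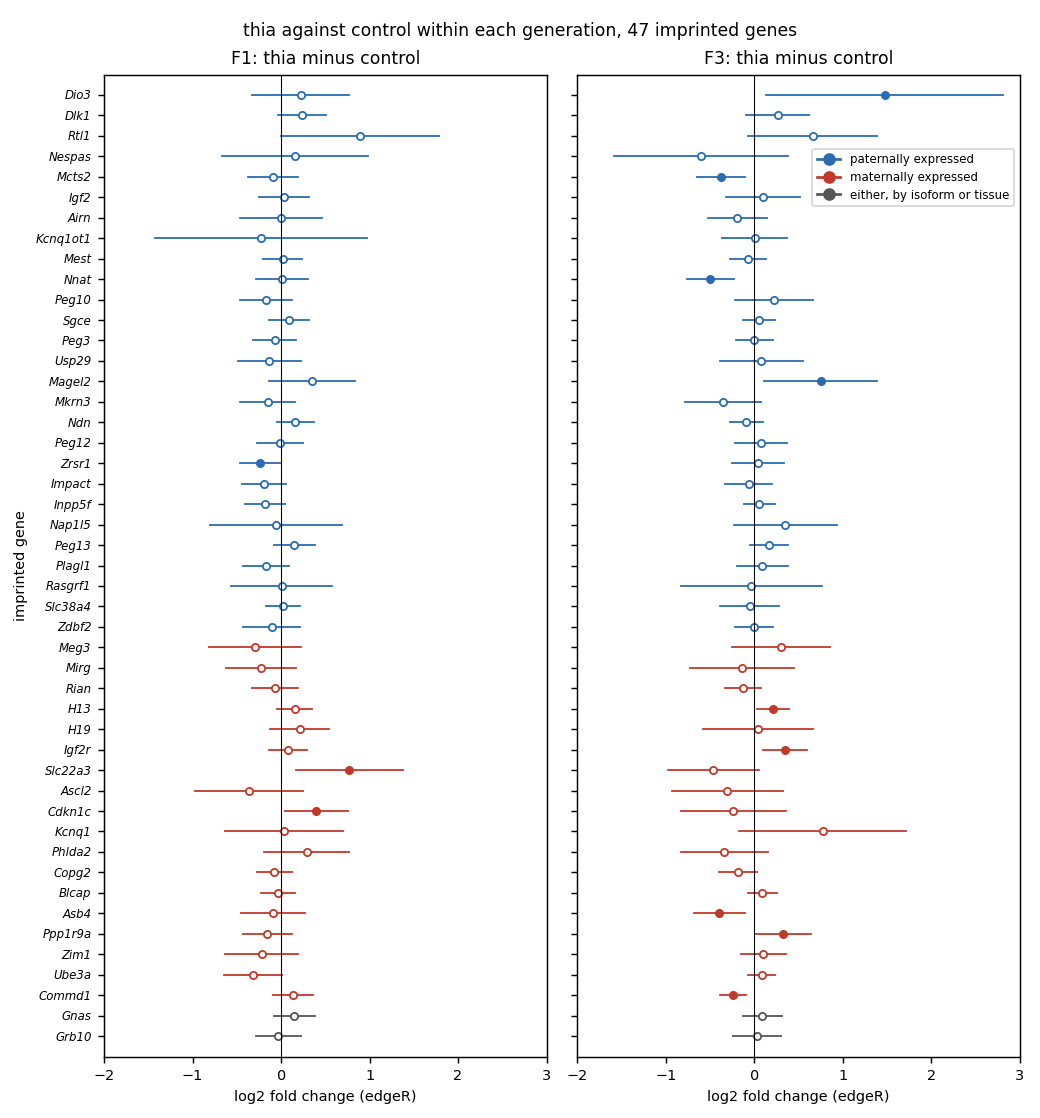
log2 fold change of *thia* over control in F1 (left) and F3 (right) for the 47 tested imprinted genes; lines are 95% confidence intervals from edgeR, filled points have an unadjusted p under 0.05, and colour gives the expressed parental copy. In F1, 3 points are filled and in F3, 9; most intervals cross 0 in both panels.

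The guest and host genes can be set side by side, a view chosen after the values were seen and given as description only. In F3, the guests *Nnat* and *Mcts2* had log2 fold changes of -0.50 and -0.37, while their hosts *Blcap* and *H13* were at 0.09 and 0.21. The third pair did not follow this, with the guest *Zrsr1* at 0.042 and the host *Commd1* at -0.24. In the fourth, *Kcnq1ot1* was at 0.0033 ± 0.16 and *Kcnq1* at 0.77 ± 0.40. The *Nnat* to *Blcap* ratio was 5.07, 5.41 and 4.78 in F3 control and 3.05, 3.90 and 3.20 in F3 *thia*. In F1 it was 3.48, 2.54 and 2.36 in control and 3.13, 2.65 and 2.85 in *thia*, so the F3 *thia* pools came closer to the F1 pools than the F3 controls did.

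The *Mcts2* to *H13* ratio was 0.118, 0.132 and 0.116 in F1 control and 0.106, 0.103 and 0.0995 in F1 *thia*. It was 0.121, 0.116 and 0.125 in F3 control and 0.0917, 0.0745 and 0.0759 in F3 *thia*. The ratio was lower in every *thia* pool than in every control pool of its own generation. How often the ratios of other gene pairs separate in this way was not counted. The *Zrsr1* to *Commd1* ratio was 0.380, 0.434 and 0.516 in F1 control and 0.340, 0.386 and 0.300 in F1 *thia*, where the groups overlapped. In F3 it was 0.197, 0.221 and 0.185 in control and 0.292, 0.218 and 0.224 in *thia*, where they overlapped as well. No exon base of *Nnat* or *Mcts2* was shared with the host's exons, whereas 412 bases of *Zrsr1* exon lay opposite exons of *Commd1* on the other strand.

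**Figure D3:**
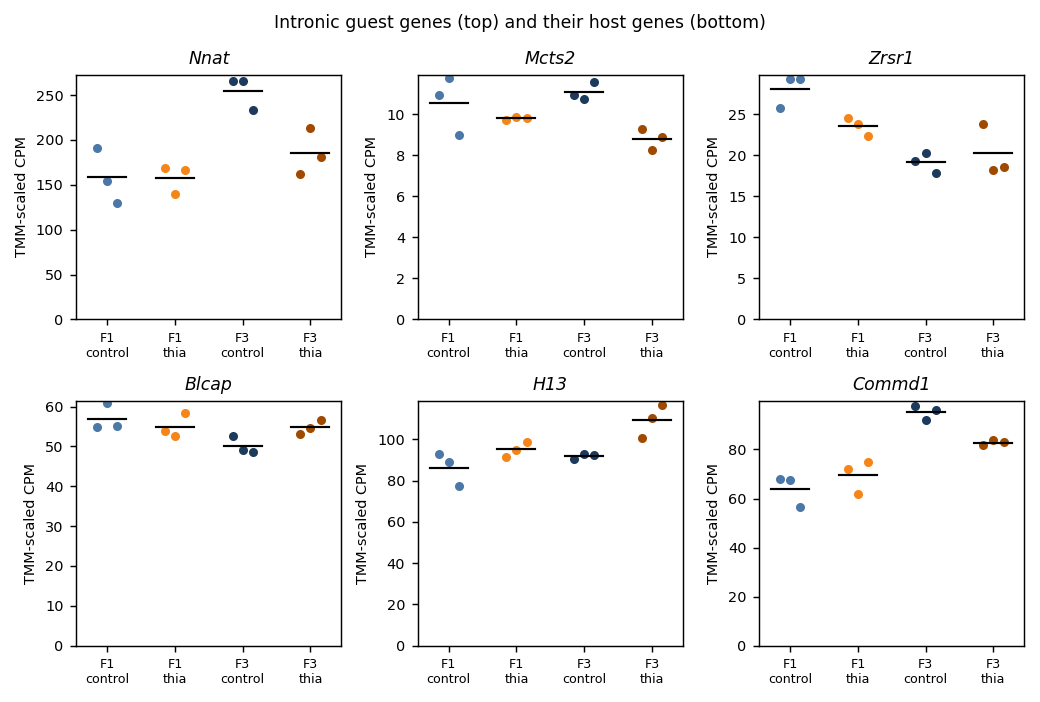
TMM-scaled CPM of the guest genes *Nnat*, *Mcts2* and *Zrsr1* (top) and of their hosts *Blcap*, *H13* and *Commd1* (bottom) in each of the 12 libraries; each point is a pool of 3 embryos and each line a group mean. F3 control pools of *Nnat* lie between 233 and 266 CPM and F3 *thia* pools between 162 and 213.

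Paternally and maternally expressed members were then compared as sets, by their medians. In F1 the median log2 fold change was 0.00039 over the 27 paternally expressed members tested, 14 of them above 0, and -0.055 over the 18 maternally expressed ones, 8 of them above 0. The median of all genes tested was 0.0094. In F3 it was 0.042 over the paternally expressed members (15 of 27 above 0) and -0.040 over the maternally expressed ones (9 of 18 above 0), against 0.0044 for all genes. The medians lay within 0.1 of that of all genes in both generations. In F3, 4 of 27 paternally (14.8%) and 5 of 18 maternally (27.8%) expressed members had an unadjusted p under 0.05, against 21.1% of all genes. In F1 they were 1 of 27 (3.70%) and 2 of 18 (11.1%), against 8.76% of all genes. In F3 each set held members on both sides of 0.

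The *thia* effects of the generations were then compared with an interaction contrast over all 12 libraries. At an FDR of 0.1 no member was called by edgeR, against 0.0051% of all 19626 genes. DESeq2 called 0 of the 39 members that it gave an adjusted p, against 4.67% of all genes. At an unadjusted p under 0.05 there were 5 of 47 members (10.6%), against 14% of all genes. The smallest p was that of *Slc22a3*, at a difference (F3 minus F1) of -1.21 ± 0.35 on the log2 scale (edgeR adjusted p = 0.248). In F3 its level was 1.66, 1.45 and 2.06 CPM in control and 1.38, 1.30 and 1.18 CPM in *thia*, so every *thia* pool was below every control, the reverse of F1. Such a reversal without overlap in either generation was seen in 2 of 47 members, *Slc22a3* and *Ube3a*, and in 1.32% of all genes tested in both. *Commd1* (-0.36 ± 0.12, edgeR adjusted p = 0.255) and *Nnat* (-0.49 ± 0.19, edgeR adjusted p = 0.291) had a lower *thia* effect in F3 than in F1.

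*Ppp1r9a* (0.50 ± 0.19, edgeR adjusted p = 0.29) and *Ube3a* (0.42 ± 0.18, edgeR adjusted p = 0.33) had a higher one. *Ube3a* was at 62.9, 62.1 and 62.7 CPM in F3 control and 65.6, 67.4 and 71.2 CPM in F3 *thia*, a small shift between narrow groups. *Inpp5f* was sixth by p, at 0.26 ± 0.12 (edgeR adjusted p = 0.362). In each of these genes the F3 control pools lay apart from the F1 control pools as well, as given below.

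**Figure D4:**
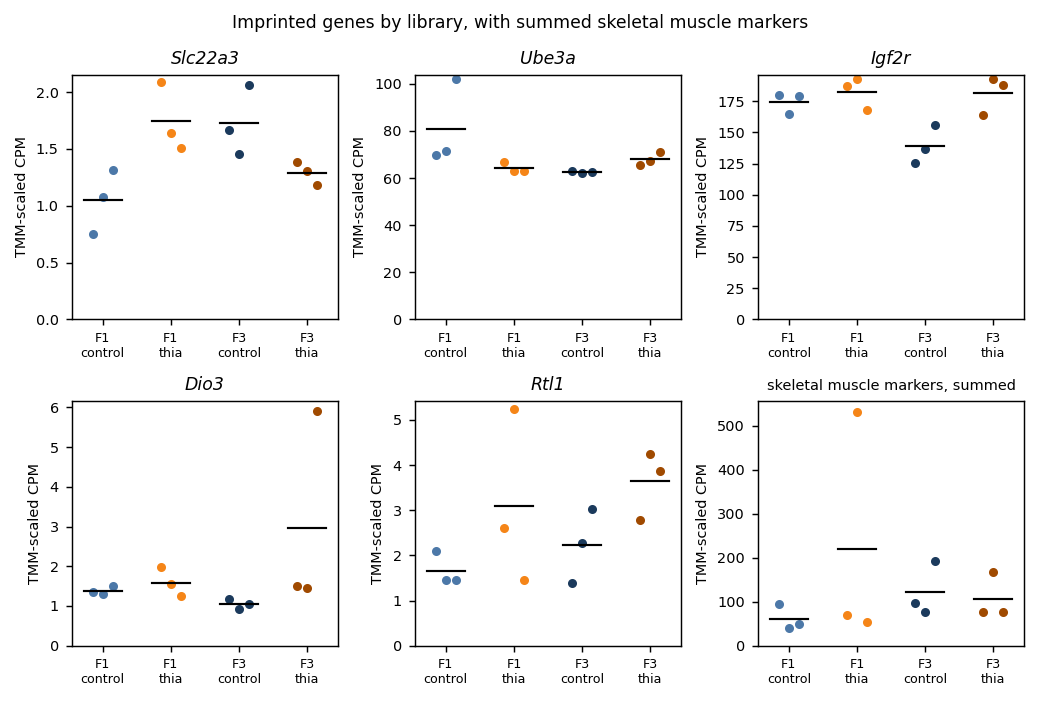
TMM-scaled CPM by library of *Slc22a3*, *Ube3a*, *Igf2r*, *Dio3* and *Rtl1*, and the summed level of 8 skeletal muscle markers; points are pools and lines group means. *Slc22a3* lies above its controls in F1 *thia* and below them in F3 *thia*; single pools lead *Dio3* (F3 *thia* replicate 3) and *Rtl1* in F1 (*thia* replicate 2).

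The large clusters were described member by member. In the Igf2-H19 cluster, *Igf2* is paternally and *H19* maternally expressed under one shared control region. *Igf2* was at 1429, 1189 and 1223 CPM in F1 control and 1424, 1343 and 1117 CPM in F1 *thia*, and at 1609, 1590.3 and 2023 CPM in F3 control and 1484, 2332 and 1917 CPM in F3 *thia*. *H19* was at 1989, 1538 and 1975 CPM in F1 control and 2276, 2279.8 and 1752 CPM in F1 *thia*, and at 3406, 3037 and 5171 CPM in F3 control and 3124, 5480.2 and 3712 CPM in F3 *thia*. The *thia* and control pools of both genes overlapped in each generation, and the F3 pools were the higher ones.

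The *thia* effect on *Igf2* was 0.03 in F1 (95% interval -0.25 to 0.31) and 0.095 in F3 (-0.32 to 0.51) on the log2 scale. That on *H19* was 0.21 (-0.12 to 0.54) and 0.044 (-0.58 to 0.66). In F3 the highest pools of both genes were control replicate 3 and *thia* replicate 2, the 2 libraries with the most liver marker RNA, and its part in their level was not tested. The *Igf2* to *H19* ratio was 0.719, 0.773 and 0.619 in F1 control and 0.626, 0.589 and 0.637 in F1 *thia*, and 0.472, 0.524 and 0.391 in F3 control and 0.475, 0.425 and 0.516 in F3 *thia*. It separated the generations and not the doses, with no F3 pool above the lowest F1 pool.

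In the Dlk1-Dio3 cluster, *Dlk1*, *Rtl1* and *Dio3* are paternally expressed and the noncoding RNAs *Meg3*, *Rian* and *Mirg*, which host small RNAs, maternally. *Dlk1* was at 971, 816 and 699 CPM in F1 control and 955, 914 and 1025 CPM in F1 *thia*, and at 948, 974 and 1041 CPM in F3 control and 962, 1472 and 1216 CPM in F3 *thia*. Its F3 *thia* replicate 2, the pool with the most liver marker RNA, was the highest of all 12. The F3 effect was 0.26 ± 0.15 on the log2 scale (edgeR adjusted p = 0.364). *Meg3* was at 95.9, 122 and 118 CPM in F1 control and 117, 99.8 and 53.7 CPM in F1 *thia*, where replicate 3 was the lowest of all libraries, and at 72.0, 115 and 123 CPM in F3 control and 99.4, 130.3 and 162 CPM in F3 *thia*. The groups overlapped in both generations (-0.29 ± 0.23 in F1 and 0.30 ± 0.24 in F3). *Rian* was at -0.07 ± 0.12 in F1 and -0.12 ± 0.088 in F3, and *Mirg* at -0.23 ± 0.18 and -0.14 ± 0.25. *Dio3* in F1 was at 0.22 ± 0.25.

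In the *Kcnq1* cluster, the paternally expressed *Kcnq1ot1* RNA silences the maternally expressed *Cdkn1c*, *Phlda2*, *Ascl2* and *Kcnq1*. *Kcnq1ot1* varied widely between the F1 pools of both doses, at 26.6, 12.8 and 20.3 CPM in F1 control and 35.5, 7.87 and 6.70 CPM in F1 *thia*. In F3 it was even, at 8.20, 8.33 and 10.9 CPM in control and 8.76, 9.41 and 10.1 CPM in *thia*. *Cdkn1c* was at 573, 447 and 802 CPM in F3 control and 385, 632 and 572 CPM in F3 *thia*, with overlapping groups (-0.24 ± 0.25, edgeR adjusted p = 0.629). *Phlda2*, a brake on placental growth, was at 0.29 ± 0.22 in F1 and -0.34 ± 0.21 in F3. *Ascl2*, a transcription factor of the trophoblast, was at -0.36 ± 0.28 and -0.30 ± 0.27, and the potassium channel gene *Kcnq1* at 0.034 ± 0.30 and 0.77 ± 0.40. None of these reached an unadjusted p of 0.05 in F3.

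In the *Peg3* cluster, *Peg3* and *Usp29* are transcribed away from each other on the paternal copy, and *Zim1* is maternally expressed. *Peg3*, a zinc finger protein, varied little between libraries, at 750.2, 658 and 761 CPM in F1 control, 701, 716 and 631 in F1 *thia*, 718, 813 and 857 in F3 control and 803, 807 and 843 in F3 *thia*. Its log2 fold change was -0.071 ± 0.11 in F1 (95% interval -0.31 to 0.17) and -0.0003 ± 0.089 in F3 (-0.21 to 0.21). The ubiquitin protease *Usp29* was at -0.13 ± 0.16 in F1 and 0.077 ± 0.20 in F3, and the zinc finger gene *Zim1* at -0.22 ± 0.19 and 0.10 ± 0.11. *Mest*, outside this cluster, was at 0.019 ± 0.099 in F1 and -0.073 ± 0.089 in F3.

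The controls of the generations differed more than the doses did. Between F3 control and F1 control, 18 of 47 members (38.3%) were called at an FDR of 0.1, against 42.3% of all 19626 genes, so the members were near the background here too. Of these, 10 were higher in F3 (21.3% against 19.9% of all genes) and 8 lower (17.0% against 22.4%). DESeq2 called 18 members too, against 40.3% of all genes. Without F3 control replicate 3 the count was 12, with *Gnas*, *Igf2*, *Rian*, *Slc22a3*, *Ube3a* and *Usp29* no longer called, and 30.9% of all genes were called. Without the 2 libraries rich in liver markers it was 14, against 35.0% of all genes. With upper quartile scaling it was 20, of which 14 were higher, against 42.0% of all genes called in either direction. That scaling put the median log2 difference of all genes at 0.076, against -0.018 with TMM.

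*Commd1* had the smallest p, with F1 controls at 68.0, 67.5 and 56.7 CPM and F3 controls at 97.8, 91.9 and 96.2 CPM, a log2 difference of 0.61 ± 0.085 (edgeR adjusted p = 0.000394). *Peg10*, derived from a retrotransposon and needed for the placenta, was at 108, 109 and 129 CPM in F1 control and 43.8, 43.9 and 56.2 CPM in F3 control. That was the largest decrease among the called members, at -1.23 ± 0.18 (edgeR adjusted p = 0.000488). Its neighbour *Sgce*, which shares the promoter region, was at 0.063 ± 0.092, so the *Peg10* to *Sgce* ratio was 1.87, 1.90 and 2.24 in F1 control and 0.761, 0.685 and 1.04 in F3 control. *Cdkn1c* was 2.88-fold higher in F3 control, at 1.53 ± 0.23 on the log2 scale (edgeR adjusted p = 0.000691).

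*Nnat* was higher in F3 control at 0.73 ± 0.14 (edgeR adjusted p = 0.00202), and its F1 pools were at 191, 154 and 130.3 CPM. *H19* was 2.16-fold higher, at 1.11 ± 0.23 (edgeR adjusted p = 0.00355), and still 0.85 without the 2 liver-rich libraries (edgeR adjusted p = 0.00259). *Zrsr1* was lower at -0.52 ± 0.12 (edgeR adjusted p = 0.00572). The other called members that were higher in F3 control were *Igf2* (0.48), *Gnas* (0.26), *Ndn* (0.36), *Rian* (0.25), *Slc22a3* (0.77) and the amino acid transporter *Slc38a4* (0.36). Those that were lower were *Asb4* (-0.66), *Igf2r* (-0.29), *Inpp5f* (-0.33), *Ppp1r9a* (-0.59), *Ube3a* (-0.34) and *Usp29* (-0.57). *Igf2r* and *Ube3a* were not among the 20 called with upper quartile scaling. The erythroid sums given above moved with this comparison. Leaving the erythroid genes out before scaling gave the same count, 18 (42.5% of all genes). That step changes the scaling only and leaves the cell mixture in place, so the part of erythroid cells in these values was not tested.

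**Figure D5:**
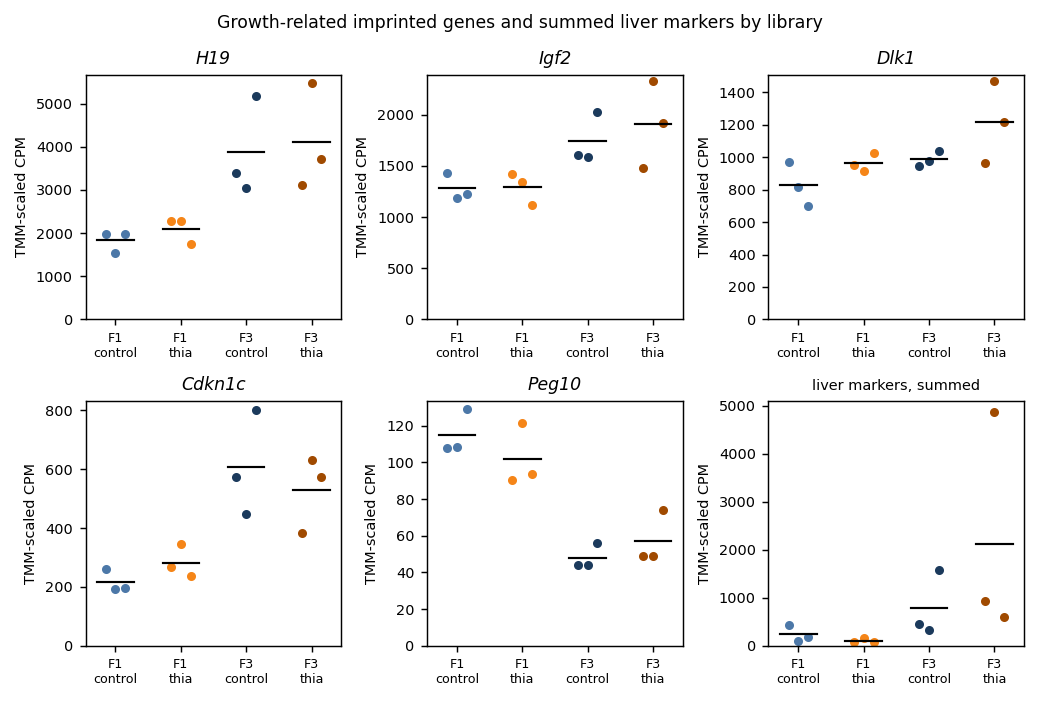
TMM-scaled CPM by library of *H19*, *Igf2*, *Dlk1*, *Cdkn1c* and *Peg10*, and the summed level of 4 liver markers; points are pools and lines group means. *H19* and *Cdkn1c* lie higher and *Peg10* lower in all F3 pools than in all F1 pools, and F3 control replicate 3 and F3 *thia* replicate 2 lead *H19*, *Igf2*, *Cdkn1c* and the liver sum.

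A further list held 49 other imprinted genes. Of those tested, 0 of 46 in F1 and 0 of 43 in F3 were called by edgeR at the same limits. DESeq2 called 1 of 44 in F1, *Rhox5*, and 5 of 36 in F3, all higher in *thia* (13.9% against 9.54% of all genes). At an unadjusted p under 0.05 there were 7 of 46 in F1 (15.2% against 8.76% of all genes), 6 higher and 1 lower, where 4.63% of all genes passed as higher and 4.13% as lower. In F3 there were 8 of 43 (18.6%), below the 21.1% of all genes. All 8 were higher in *thia*, a direction in which 11% of all genes passed. In F1 the smallest p was that of *Rhox5*, a homeobox gene of Sertoli cells, at -0.73 ± 0.16 (edgeR adjusted p = 0.411; DESeq2 adjusted p = 0.0101). *Ddc*, the enzyme that makes dopamine, was at 0.49 ± 0.14 and the matrix proteoglycan *Dcn*, itself one of the interstitial markers used here, at 0.28 ± 0.098. In F3 the smallest p values were those of *Dhcr7*, the last enzyme of cholesterol synthesis (0.94 ± 0.21, edgeR adjusted p = 0.105; DESeq2 adjusted p = 0.000378), *Smoc1*, a matrix protein (0.69 ± 0.16, edgeR adjusted p = 0.108; DESeq2 adjusted p = 0.00274), and *Atp10a*, a lipid flippase (0.50 ± 0.16, edgeR adjusted p = 0.147; DESeq2 adjusted p = 0.0388). They moved beside the Leydig cell markers given above, whose part was not tested.

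A list of 24 genes that set, read or erase imprints had 23 tested members, and edgeR called none in F1 or F3. DESeq2 called none in F1 and 3 of 21 in F3, *Tet3*, *Kdm1b* and *Dnmt1*, all higher in *thia* (14.3% against 9.54% of all genes). In F1, 4 of 23 had an unadjusted p under 0.05 by edgeR (17.4% against 8.76% of all genes), all lower in *thia*, a direction in which 4.13% of all genes passed. The smallest were those of *Zfp42*, a pluripotency zinc finger gene (-0.54 ± 0.18), *Rif1*, a replication timing factor (-0.40 ± 0.14), and *Zfp445*, which protects imprints after fertilization (-0.28 ± 0.12). In F3, 5 of 23 did (21.7%), near the 21.1% of all genes. All 5 were higher in *thia*, where 11% of all genes passed in that direction, led by the methylcytosine dioxygenase *Tet3* (0.54 ± 0.17, DESeq2 adjusted p = 0.0272), the maintenance methyltransferase *Dnmt1* (0.35 ± 0.12, DESeq2 adjusted p = 0.0706) and the histone demethylase *Kdm1b* (0.54 ± 0.21, DESeq2 adjusted p = 0.0648). In the difference between generations 6 of the 23 had an unadjusted p under 0.05 (26.1% against 14% of all genes), *Tet3* and *Dnmt1* among them. All 6 had a higher *thia* effect in F3, and 7.93% of all genes passed in that direction. edgeR called none at an FDR of 0.1, and DESeq2 called 1 of 20, *Tet3* (adjusted p = 0.0643), where 2.8% of all genes were called higher. The germ cell marker sums in F1 were 1500.2, 2098 and 1752 CPM in control and 1596, 1549 and 1409.8 CPM in *thia*, which overlapped. Of the 13 germ cell markers, 10 had a fold change below 0 in F1, and 6 of these had an unadjusted p under 0.05, with none higher. Their part in the values of the regulators was not tested.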

How the data were processed

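The deposited files hold raw counts per gene symbol, 1 file per library. According to the methods, the authors mapped paired-end stranded reads to mm10 with HISAT2 (version 2.1.0 in the submitters' processing notes) and counted them with featureCounts on a UCSC refGene annotation. From these counts, edgeR 4.0.16 (R 4.3.3) was run with TMM scaling, filterByExpr at a minimum count of 10, glmQLFit and glmQLFTest, with Benjamini-Hochberg adjustment over all genes tested. The F1 and F3 fits used their own 6 libraries, and the other contrasts all 12. FDR limits were 0.15 in F1 and 0.1 elsewhere. DESeq2 1.42.0 was an alternative, as were other scalings, filters and leaving out each pool. The code was tested on simulated data. No per-sample column was left unused. Replicate pairs differed beyond sampling noise, with chi-square per degree of freedom from 17.3 to 101.

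Members and lists were chosen with earlier results of these data known. Genes given in full were the 10 smallest p values in F1 and in F3, the 6 in the difference and between controls, 4 large clusters, the 5 highest levels per kb, and the 3 smallest p values per generation of the further lists. The methods state that males of several litters entered each assay. How litters were divided among the pools is not given in the sources used here, so p-values measure the spread between pools. Loci and exon lengths come from GENCODE M21 (48 of 48 matched), promoters from RefSeq.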

Additional observations from a re-analysis of the deposited data

Results flagged for a closer look

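For 2 members every *thia* pool lay on one side of its controls in F1 and every *thia* pool on the other side in F3 (4.26% of 47, against 1.32% of all 18229 genes tested in both). The difference of the *thia* effects (F3 minus F1, log2) was -1.21 for *Slc22a3* (SE 0.35, edgeR adjusted p = 0.248), a gene between 0.752 and 2.09 CPM in all libraries. Leaving out each pool in turn gave -1.40 to -1.02. For *Ube3a* it was 0.42 (SE 0.18, edgeR adjusted p = 0.33). Leaving out each pool gave 0.20 to 0.52, the lowest without F1 control replicate 3. Neither passed the limit after adjustment over all genes.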

How the results depend on the processing

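No direction reversed, under any alternative that was run, among the 10 genes with the smallest p in F1 and in F3 and the 6 in each of the other contrasts. Over all 47 tested members, 16 in F1, 16 in F3, 18 in the difference and 7 between the controls changed sign under at least 1 alternative. None of these was called or had an unadjusted p under 0.05, and their log2 values were at most 0.23, 0.24, 0.25 and 0.23 in size. *Peg3* in F3 was one, at -0.0003 with edgeR and 0.012 with DESeq2. The count of members with an unadjusted p under 0.05 in F1 (3) was 5 with DESeq2 and 1 to 5 when each pool was left out. Over all genes it was 1677 in the main fit, 1662 with DESeq2 and 1004 to 2305 when each pool was left out. The F1 medians moved to between -0.093 and 0.040 for paternally and between -0.13 and 0.014 for maternally expressed members. In F3 the count at an FDR of 0.1 (0) was 7 with DESeq2, 5 with all 12 libraries in one fit, and 1, which was *Nnat* each time, with upper quartile scaling, with no filter on low counts, and without the 2 liver-rich libraries. It was 0 to 1 when each pool was left out, with *Nnat* called without F3 *thia* replicate 2. The F3 count at an unadjusted p under 0.05 (9) was 5 to 12, with 5 without F3 control replicate 1 and without F3 *thia* replicate 3. Over all genes it was 3906 in the main fit and 2249 and 2611 without these pools. Without F3 *thia* replicate 1 it was 12 among the members and 4112 over all genes. The F3 median of maternally expressed members was -0.13 with at least 10 counts required in every library, 0.054 without the liver-rich libraries, and -0.13 to 0.051 when each pool was left out; that of paternally expressed members was -0.033 to 0.044. In the difference between generations the count at an unadjusted p (5) was 8 with no filter on low counts and 4 to 8 when each pool was left out. Over all genes it was 2755 in the main fit, 3327 with no filter and 1818 to 3155 when each pool was left out. The cause of these shifts was not tested. Between the controls the count was 12 to 19 when each pool was left out, and 30.9% to 43.3% of all genes were called.

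Replicate numbers did not pair the pools, since the correlation of same-numbered deviations was -0.032, -0.034 and 0.020 in F1 and 0.23, -0.42 and -0.27 in F3. A replicate block called 0 members in F1, F3 and the difference, with 2, 10 and 4 at an unadjusted p under 0.05. Over all genes it called 3, 0 and 0, with 1397, 3429 and 2245 at an unadjusted p under 0.05. No blocked fit was possible between the controls, since generation is constant within a pair. The alternatives without the liver-rich libraries and without erythroid genes were chosen after seeing the data. With 3 pools a group, an exact permutation test cannot go below 0.1, and genes near 1 CPM rest on few counts.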

Other observations

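The 23 tested genes that set, read or erase imprints were lower in F3 control than in F1 control in 22 cases, with a median log2 difference of -0.62 against -0.018 over all genes tested. Of the 23, 14 were called lower at an FDR of 0.1 and none higher, where 22.4% of all genes were called lower and 42.3% in either direction. They include the methyltransferases *Dnmt1* (-0.90), *Dnmt3a* (-0.41) and *Dnmt3b* (-0.73) and the dioxygenases *Tet1* (-0.77), *Tet2* (-1.14) and *Tet3* (-0.88). The germ cell marker sums were 1500.2, 2098 and 1752 CPM in F1 control and 1352, 1176 and 889 CPM in F3 control, and the Sertoli cell marker sums 1454, 1577 and 1239 and 758, 882 and 673 CPM. Other marker lists differed between these controls as well. Of the endothelial markers 6 of 7 were called lower in F3 control, and 6 of 6 macrophage and 7 of 9 erythroid markers were called higher. The part of any of these cell types in the difference was not tested, and generation and library making cannot be told apart.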
